A study of Mus musculus with 64 samples.

Results

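Gene expression in striatum punches was compared between 5 N/N and 5 J/J female mice, which are 10 of the 16 mice of an F2 intercross between the substrains C57BL/6NJ and C57BL/6J. N/N females (mice 2, 4, 11, 13 and 14) carried 2 copies of the mutant C57BL/6NJ allele at 1 selected locus and are called binge-prone by the submitters. J/J females (mice 1, 6, 7, 10 and 16) carried 2 copies of the wild-type C57BL/6J allele and are called binge-resistant. The mice were chosen by the genotype and sex in the sample labels, and the other 6 mice, 3 N/N males and 3 J/J males, enter only a closing comparison of the sexes. All 16 mice have a mixed F2 background of both substrains, so alleles elsewhere in the genome also segregate within each genotype, and which locus was selected is not named in the labels. Punches were taken at 69 to 100 days of age on day 24, directly after a 5 min test on the elevated plus maze, a raised cross of open and walled arms that measures anxiety-like behaviour.

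The striatum is the input nucleus of the basal ganglia and takes part in action selection, reward and habit. Most of its neurons are medium spiny neurons, GABA-releasing cells that respond to dopamine and form a direct pathway, marked by the D1 receptor, and an indirect pathway, marked by the D2 receptor. The cortex above it is rich in glutamatergic projection neurons and is separated from the striatum by the white matter of the corpus callosum. A punch that reaches into either neighbour therefore contributes other cell types to bulk RNA. Slc17a7, the vesicular glutamate transporter VGLUT1 of cortical neurons, and Ppp1r1b, the DARPP-32 protein of medium spiny neurons, served as the measure of this make-up. In bulk RNA, fewer cells of a type and less RNA per cell cannot be told apart.

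The 10 female libraries held 27405386 to 51334152 gene reads each, with a median of 31308201 in N/N and 31295676 in J/J females. Each mouse was sequenced in 4 runs, which were summed, and the mouse is the replicate. Every library matched its sex label, with 31118 to 56315 reads of Xist, the X-inactivation RNA, and 3 to 47 reads over 4 Y-linked genes. Striatal markers were abundant in every punch. The series text gives 4 females per genotype while the sample labels give 5. N/N mouse 11 and J/J mouse 10 shared a cage, and no other females did. N/N mouse 11 stood apart in punch make-up, as described next, and the main results are given with and without it.

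Cortical RNA varied widely among the punches, mainly through 1 mouse. Slc17a7 was at 759, 945, 255, 945 and 849 CPM (read counts scaled to library size with TMM factors) in N/N mice 2, 4, 11, 13 and 14, against 720, 852, 719, 572 and 821 CPM in J/J mice 1, 6, 7, 10 and 16. Mouse 11 was far below every other female, and the remaining values of both genotypes overlapped. Ppp1r1b was at 1046, 751, 1302, 901 and 1200 CPM in N/N mice, in the same order, and at 1156, 822, 1065, 1044 and 768 CPM in J/J mice. Mouse 11 had the highest Ppp1r1b of the 10 and mouse 4 the lowest, both of them N/N.

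The ratio of Slc17a7 to Ppp1r1b was 0.726, 1.26, 0.196, 1.05 and 0.707 in N/N mice and 0.623, 1.04, 0.675, 0.548 and 1.07 in J/J mice. It spanned a 6.41-fold range over the 10 females and a 2.30-fold range without mouse 11. On the log2 scale it averaged -0.58 ± 1.05 over the N/N females and -0.39 ± 0.44 over the J/J females (SD, n = 5 each). The difference of -0.19 was smaller than the spread between mice (2-sided exact permutation test, p = 0.841, where the smallest possible p is 0.00794). Without mouse 11 the N/N mean was -0.14, above the J/J mean, with a difference of 0.25 (exact permutation p = 0.381). The sign of the difference in make-up between the genotypes thus rested on mouse 11.

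**Figure D1:**
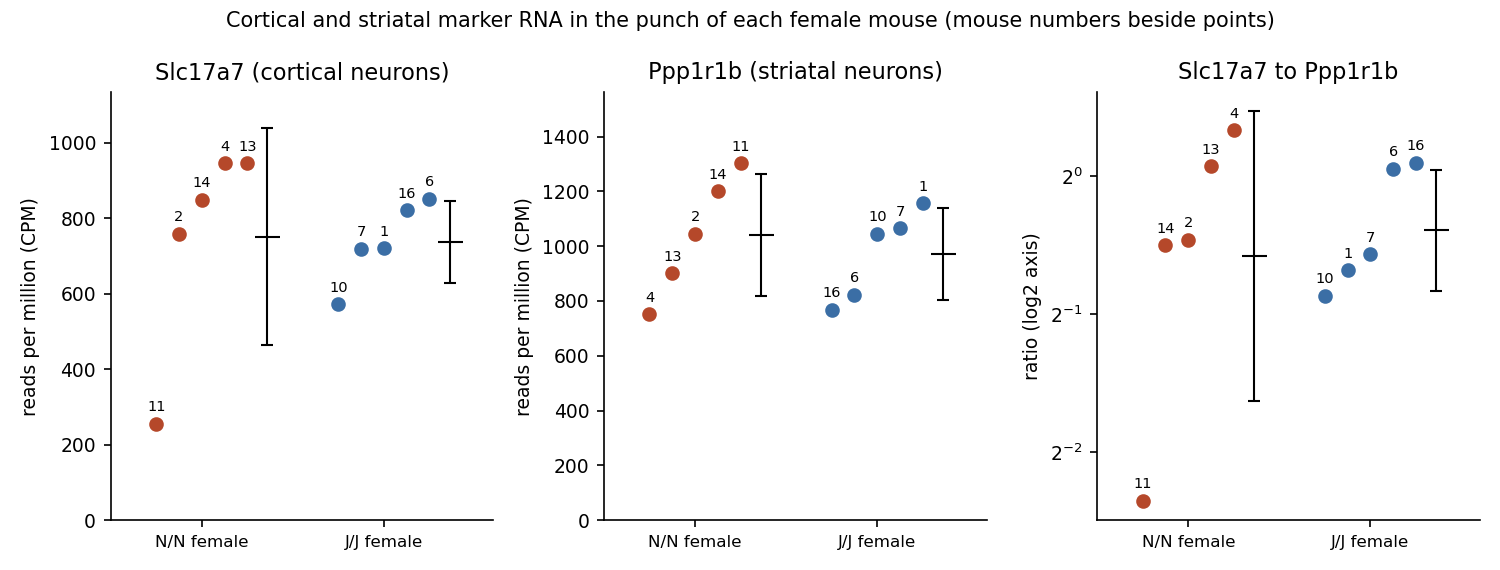
Slc17a7 and Ppp1r1b in CPM and their ratio on a log2 axis, with 1 point per female mouse (number above it) and the mean ± SD of each genotype beside the points (of log2 values for the ratio). Mouse 11 has a ratio of 0.196, and the other 9 females lie between 0.548 and 1.26 with N/N and J/J mice overlapping.

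Genotype was tested across 15712 genes, and no gene passed the adjusted threshold. By edgeR's quasi-likelihood test 0 genes (0%) had a Benjamini-Hochberg adjusted p under 0.05, 0 had one under 0.1, and the smallest was 0.998. DESeq2 and limma-voom also called 0. The unadjusted p was under 0.05 for 530 genes (3.37%), 276 with higher and 254 with lower means in N/N females, for 503 with DESeq2 and for 539 with limma-voom. Evenly spread p-values would place a share of 0.05 of the genes there, which is above 3.37%. The edgeR count was 1197 (7.57%) without N/N mouse 11 and 886 (5.61%) without N/N mouse 4. It was 310 (1.96%) without J/J mouse 10 and 314 (1.99%) without N/N mouse 14, and 0 genes were called in each of these fits. For 87.3% of genes the 95% interval of the fold change lay within 1.5-fold in either direction, and for 97.7% within 2-fold. On simulated counts with 200 changed genes, the test in females recovered 27.0% of changes of 0.32 on the log2 scale, 72.1% of changes of 0.58 and 85.3% of changes of 1. It also called 10 unchanged genes. Genes were simulated independently, without variation in punch make-up shared between genes, so recovery in the real punches may differ.

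The genes closest to the threshold with higher means in N/N females came from several functions. Tac2, which encodes the precursor of the neuropeptide neurokinin B, had the smallest p of them. It is ENSMUSG00000025400.11, on the plus strand of chromosome 10 from 127724478 to 127731768 (GRCm38). Tac2 was at 3.51, 3.67, 3.94, 3.24 and 3.16 CPM in N/N mice 2, 4, 11, 13 and 14, against 2.50, 2.56, 2.50, 1.70 and 2.39 CPM in J/J mice 1, 6, 7, 10 and 16. The 2 genotypes did not overlap, and J/J mouse 10 was the lowest. Expressed as N/N over J/J, the log2 fold change was 0.59 (SE 0.13), a 1.5-fold difference with a 95% interval of 1.25 to 1.81, and the adjusted p was 0.998 (edgeR).

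Pld1, phospholipase D1, which makes the signalling lipid phosphatidic acid, was separated by genotype with little spread. Its level was 13.3, 11.7, 11.9, 12.1 and 12.4 CPM in N/N mice and 10.7, 10.3, 10.7, 10.8 and 10.2 CPM in J/J mice, a log2 fold change of 0.22 (SE 0.06). Slc6a11, the GABA transporter GAT-3 found mainly on astrocytes, was at 156, 140, 184, 197 and 152 CPM in N/N mice and at 138, 139, 138, 115 and 132 CPM in J/J mice (log2 fold change 0.32, SE 0.09). Its groups did not overlap, but N/N mouse 4 lay close to the top of the J/J range.

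The other genes of smallest p with higher N/N means had log2 fold changes between 0.21 and 0.97. Tm6sf2, known for lipid export from the liver, averaged 2.58 ± 0.649 CPM in N/N and 1.66 ± 0.221 CPM in J/J females, and Osgin1, which responds to oxidative stress, averaged 0.775 ± 0.0808 CPM in N/N and 0.526 ± 0.0308 CPM in J/J females (SD, n = 5 each). Atf3, a transcription factor induced by stress, was at 1.16 ± 0.353 CPM in N/N and 0.589 ± 0.205 CPM in J/J females, with overlapping mice. Efs, an adaptor for Src kinases, Cyp4v3, a fatty acid hydroxylase, and Prkcd, protein kinase C delta, had no overlap between the genotypes (log2 fold changes 0.27, 0.24 and 0.23). Tcn2, a vitamin B12 carrier, Pdk4, a kinase that limits pyruvate oxidation, and Calhm2, a calcium homeostasis channel, overlapped (0.24, 0.21 and 0.43). Atf3 and Osgin1 averaged under 2 CPM in both genotypes, so each of their values rests on few reads.

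Genes closest to the threshold with lower N/N means included Hdx and Xist, both on chromosome X, and several nuclear proteins. Hdx, a homeobox gene on the minus strand of chromosome X (ENSMUSG00000034551.12, 111569931 to 111697079, GRCm38), was at 7.17, 7.68, 8.34, 6.88 and 7.66 CPM in N/N mice, against 8.57, 10.2, 9.57, 9.90 and 8.51 CPM in J/J mice. No N/N mouse reached the J/J range, and the log2 fold change was -0.31 (SE 0.08, adjusted p = 0.998 by edgeR). Xist was at 1111, 1098, 1272, 1304 and 1024 CPM in N/N mice and 1261, 1422, 1371, 1518 and 1400 CPM in J/J mice. Mice 11 and 13 overlapped J/J mouse 1, and the log2 fold change was -0.26 (SE 0.08). The deposited gene Mir374 was at 0.675 ± 0.107 CPM in N/N and 1.22 ± 0.355 CPM in J/J females (SD, n = 5 each). Poly(A) libraries do not measure the mature miRNA, and reads of a transcript that overlaps this gene were not separated.

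Scn1a, the sodium channel Nav1.1 of fast-spiking neurons, was at 140, 150, 156, 129 and 137 CPM in N/N mice and 147, 169, 171, 171 and 167 CPM in J/J mice. J/J mouse 1 lay among the N/N mice, and the log2 fold change was -0.21 (SE 0.06). Adam33, a membrane metalloprotease (ENSMUSG00000027318.17, minus strand of chromosome 2, 131050591 to 131063814, GRCm38), was at 2.42, 3.24, 1.90, 3.35 and 3.12 CPM in N/N mice and 3.98, 4.33, 3.59, 3.47 and 5.23 CPM in J/J mice. The groups did not overlap (log2 fold change -0.54, SE 0.16). Without overlap were also Mcm8 of recombination repair (-0.30), the zinc finger genes Zfp119b (-0.39) and Zfp112 (-0.21), and the protocadherin Pcdhb22 (-0.26). Zinc finger and protocadherin genes belong to families of close copies, for which unique alignment can lose or shift reads. Atp8b1, a phospholipid flippase, and Atad2, a chromatin ATPase, overlapped between the genotypes (-0.38 and -0.32).

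Complete separation of the genotypes was rare over the whole transcriptome. All 5 N/N females lay above all 5 J/J females for 37 of the 15712 genes (0.235%), and below them for 38 (0.242%). Of the 24 genes taken for the smallest p, 12 in each direction, 8 were in the first set and 7 in the second. They were taken by smallest p, so this count follows from the choice.

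**Figure D2:**
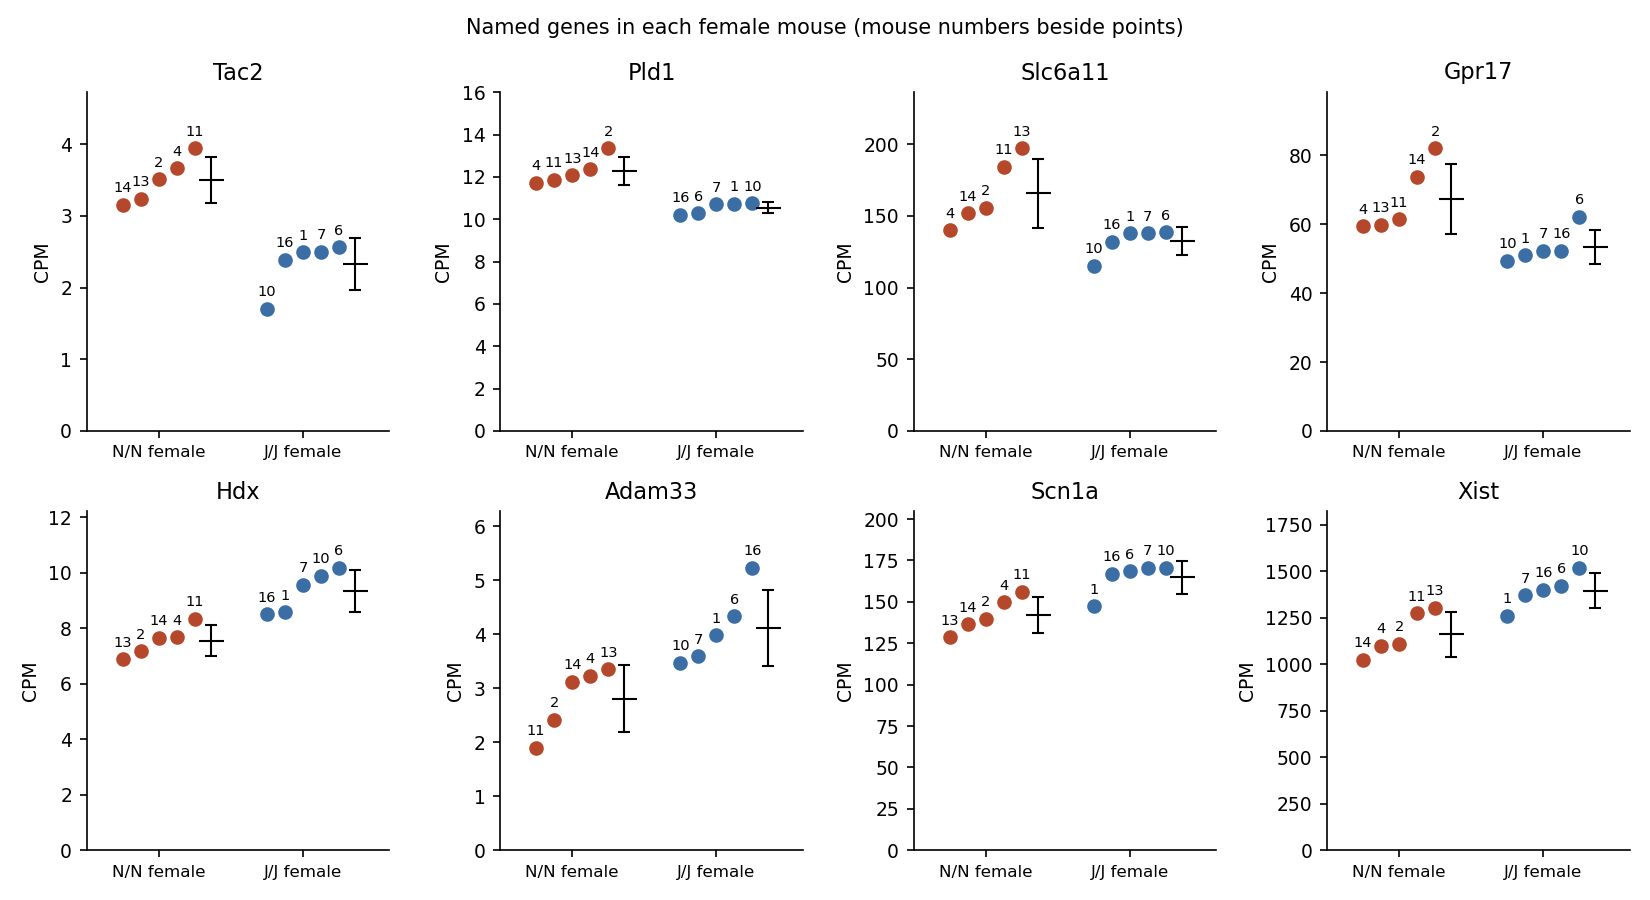
CPM of 8 genes in each female mouse (number above each point), with the mean ± SD of each genotype beside the points. Tac2, Pld1 and Slc6a11 lie higher and Hdx and Adam33 lower in N/N females with no overlap, while Gpr17, Scn1a and Xist overlap by 1 or more mice.

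Allowing for punch make-up did not bring any gene past the threshold. With the log2 ratio of Slc17a7 to Ppp1r1b as a covariate, 0 of 15712 genes were called for genotype by edgeR (smallest adjusted p = 0.874), 0 by DESeq2 and 0 by limma-voom, and 786 genes (5.00%) had an unadjusted p under 0.05. The common biological coefficient of variation, the spread between mice beyond counting noise, was 9.21% with the ratio in the fit and 10.8% without it. Ctgf, a secreted matrix protein also named Ccn2, had the smallest p of the genes with higher N/N means in this fit. It was at 18.2, 21.3, 9.68, 22.0 and 19.2 CPM in N/N mice and 13, 15.5, 15, 10.5 and 17.2 CPM in J/J mice, so mouse 11 was the lowest of all females and the other N/N mice the highest. Its log2 fold change was 0.39 (SE 0.08) with the ratio in the fit and 0.35 (SE 0.20) without it.

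Nfil3, a transcription factor with circadian and immune roles, had a similar layout. It was at 8.26, 7.92, 4.86, 8.09 and 7.53 CPM in N/N mice, against 5.37 to 6.10 CPM in J/J mice, and its log2 fold change with the ratio was 0.39 (SE 0.09). H1fx, a linker histone (0.25), Calhm2 (0.44), Tm6sf2 (0.64) and Tac2 (0.58, SE 0.13) were the other genes of smallest p with higher N/N means. Those with lower means included Adam33 (-0.51, SE 0.11), Atad2 (-0.30), Zfp820 (-0.52), Hdx (-0.32) and Kif27, a kinesin linked to cilia (-0.25). All of these had an adjusted p of 0.874 or above.

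The composition ratio itself, within genotype, went with many genes. Of 15710 genes tested, leaving out the 2 genes of the ratio, 595 were called by edgeR, 404 (2.57%) higher and 191 (1.22%) lower with more Slc17a7 relative to Ppp1r1b. Without mouse 11 the count was 55, with 4 genes higher (0.0253%) and 51 lower (0.323%), of 15800 tested. Of the 595 genes 44 were among those 55, which is 7.39% of the larger and 80% of the smaller list, and all 595 kept their sign. The large count and its excess of higher genes therefore rested on mouse 11, while the direction of each gene did not.

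Among genes that rose with the ratio, Sidt1, a transmembrane protein of the family that moves RNA in worms, had the smallest p. It changed by 0.60 on the log2 scale per doubling of the ratio (SE 0.05, adjusted p = 0.000224 by edgeR). It was at 25.7, 38.0, 11.2, 29.8 and 28.6 CPM in N/N mice and 27.1, 31.6, 28.2, 24.0 and 34.2 CPM in J/J mice, the lowest value being that of mouse 11 and the highest that of mouse 4. Stmn1 and Stmn2, regulators of microtubules (slopes 0.38 and 0.37), Elavl4, a neuronal RNA-binding protein (0.37), Vsnl1, a calcium sensor (0.45), Syt13, a synaptotagmin (0.39), Kcnc4, a potassium channel (0.49), Faah, which degrades endocannabinoids (0.40), Sphkap (0.59) and Ppm1e, a phosphatase (0.39), completed the first 10.

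Among the 10 genes of smallest p that fell with the ratio was Adora2a, the adenosine receptor of indirect pathway neurons. It was at 302, 216, 425, 224 and 337 CPM in N/N mice and 338, 231, 307, 341 and 227 CPM in J/J mice, and fell by 0.41 on the log2 scale per doubling of the ratio (SE 0.06, adjusted p = 0.00243 by edgeR). Gng7, a G protein subunit of medium spiny neurons (-0.34), Pcp4l1 (-0.26), Nt5e, which makes adenosine outside the cell (-0.34), Ido1, which breaks down tryptophan (-0.45), Dach1, a transcription factor (-0.39), Cyld, a deubiquitinase (-0.27), Nexn, an actin-binding protein (-0.42), Fancb, a DNA repair protein (-0.33), and Dazl, an RNA-binding protein of germ cells (-0.35), were the others. Each of the 10 was highest in mouse 11 of all females. None of these 20 genes differed by genotype past the threshold, with log2 fold changes between -0.16 and 0.07.

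**Figure D3:**
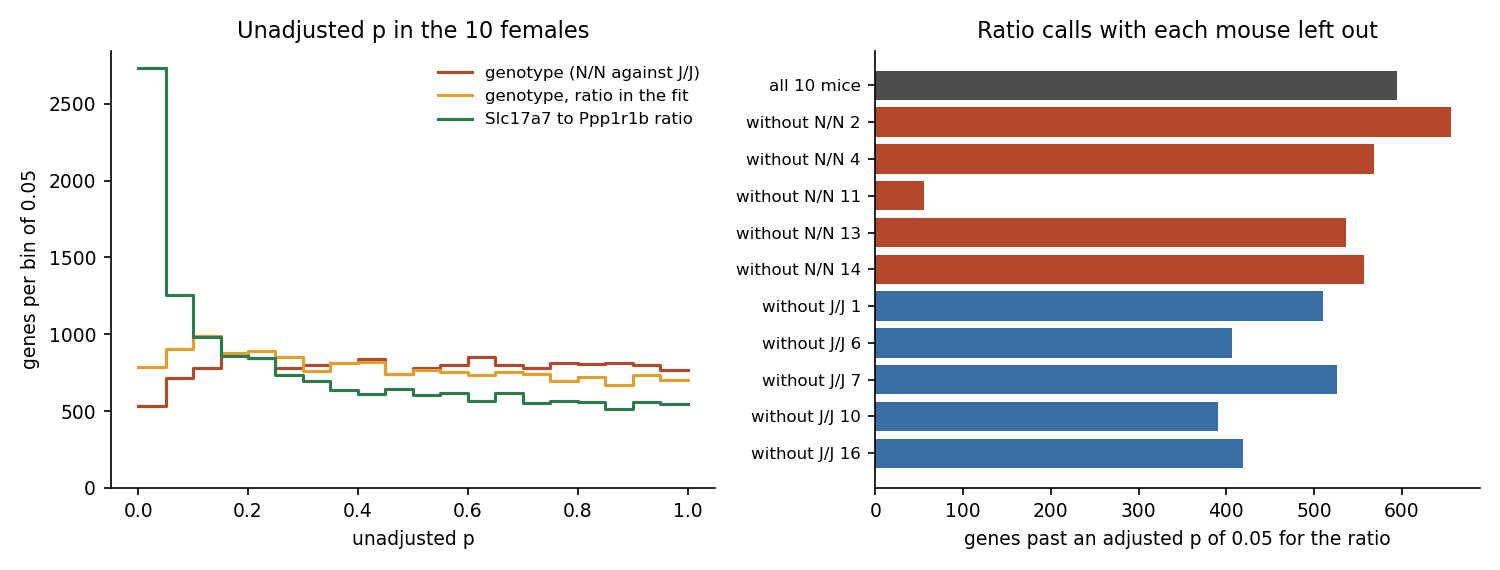
Left, the number of genes per 0.05 of unadjusted p for genotype without and with the ratio in the fit and for the ratio, over the 10 females. Right, the genes called for the ratio with all 10 mice and with each mouse left out, which number 55 without N/N mouse 11 and between 391 and 656 without any other mouse.

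Cell type markers followed the ratio by cell type, which is partly built in, because Slc17a7 and Ppp1r1b stem from these cells. Of the 15 other markers of cortical glutamatergic neurons 9 rose with it, among them Slc30a3, the synaptic zinc transporter (slope 1.08, SE 0.10), Nrn1 (0.79, SE 0.08) and Tbr1 (0.51, SE 0.07), and all 15 slopes were above 0, against 49.9% of all genes. Of 15 general medium spiny neuron markers 12 fell, such as Scn4b (-0.39). So did 6 of 8 indirect pathway markers, among them Drd2 (-0.36) and Penk (-0.35), and 2 of 9 direct pathway markers, Tac1 (-0.28) and Isl1 (-0.28). Over all genes, 2.57% were called higher with the ratio and 1.22% lower. Without mouse 11, 1 cortical marker rose and 9 medium spiny and 2 indirect pathway markers fell, against 0.0253% of all genes higher and 0.323% lower. All 23 myelin markers had slopes below 0 and 0 were called. Cholesterol synthesis genes all had slopes above 0 and 4 of 21 rose, such as Sqle (0.19) and Dhcr7 (0.18), with 0 called without mouse 11. Of 15 interneuron markers 5 had slopes above 0 (median -0.07), 1 rose and 1, Lhx8, a transcription factor of cholinergic interneurons, fell (-0.31, SE 0.08), and 0 were called without mouse 11. Vip, the interneuron peptide that rose, by 0.90 per doubling (SE 0.15), was at 11, 30.6, 4.19, 22.4 and 18.0 CPM in N/N mice and 16.4 to 23.6 CPM in J/J mice.

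Between the genotypes the cortical, medium spiny and pathway lists lay near 0 in all 10 females, and the interneuron list lay higher. The cortical list had a median log2 fold change of -0.03 with 6 of 16 members above 0, against 0.00 and 51.1% over all genes, and the median over the general medium spiny neuron list was -0.00 with 8 of 16 above 0. Without mouse 11 the cortical median was 0.16 with 14 of 16 above 0, and the medium spiny neuron median was -0.11 with 1 of 16 above 0. The mean log2 CPM of the cortical list was 5.20, 5.92, 4.25, 5.65 and 5.61 in N/N mice and between 5.27 and 5.61 in J/J mice. The direct pathway list had a median of 0.03 with 6 of 9 above 0, and -0.01 with 3 of 9 without mouse 11. The indirect pathway list had a median of 0.05 with 6 of 8 above 0, and -0.07 with 3 of 8 without mouse 11. The interneuron list had a median of 0.11 with 12 of 15 above 0 and 0 called, and 0.11 with 13 of 15 without mouse 11. Its median lay between 0.04 (without N/N mouse 14) and 0.14 (without J/J mouse 1) as each mouse was left out. With the ratio in the fit, 49.9% of all genes lay above 0 for genotype. The cortical median was then -0.03 with 6 of 16 above 0, and the medium spiny median -0.07 with 2 of 16. In that fit the direct pathway median was -0.01 (4 of 9), the indirect -0.02 (3 of 8) and the interneuron 0.10 (12 of 15). Drd1a, the D1 receptor gene, was at 255, 180, 288, 138 and 240 CPM in N/N mice and 242, 220, 238, 255 and 187 CPM in J/J mice, and Drd2 was at 136, 99.9, 175, 103 and 154 CPM in N/N mice and 147, 107, 138, 156 and 88.1 CPM in J/J mice. Both receptors overlapped between the genotypes. Of the dopamine signalling list 10 of 15 members were above 0 (median 0.06; 7 and -0.01 without mouse 11) and 0 were called, and Maob, which degrades monoamines, had the smallest p (log2 fold change 0.13, SE 0.07).

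Several glial and vascular lists lay mostly above 0 with small sizes, and others did not. All 14 astrocyte markers had log2 fold changes above 0 (median 0.13), as did 13 of 14 microglia (0.12), 12 of 13 endothelial (0.13), 10 of 11 oligodendrocyte precursor (0.16) and 10 of 10 meningeal fibroblast markers (0.27), and 0 were called in each list. The size of these medians depended on single mice, and each stayed above 0 as each mouse was left out. The highest were 0.14 for microglia and 0.16 for precursors, both without N/N mouse 4, and 0.17 for endothelial markers, without J/J mouse 1. The microglia median was 0.06 without N/N mouse 13, and the precursor median was 0.09 without N/N mouse 2 and 0.10 without N/N mouse 13. The endothelial median was 0.08 without N/N mouse 13, N/N mouse 14 or J/J mouse 16 and 0.09 without J/J mouse 10. The meningeal median was 0.12 (7 of 10 above 0) without N/N mouse 13, 0.15 without J/J mouse 7, 0.17 without J/J mouse 10, 0.42 without N/N mouse 11 and 0.48 without J/J mouse 16. Mature oligodendrocyte and myelin markers had a median of 0.02 with 14 of 23 above 0, and -0.08 with 7 of 23 without mouse 11. Mural cell markers had a median of 0.09 with 6 of 10 above 0, which lay between 0.03 (without N/N mouse 2) and 0.15 (without N/N mouse 4) as each mouse was left out. Agt, the angiotensin precursor made by astrocytes, was at 6.96, 3.78, 13.2, 12.7 and 5.92 CPM in N/N mice and 5.75, 2.96, 2.80, 3.02 and 4.34 CPM in J/J mice (log2 fold change 1.15, SE 0.36, adjusted p = 0.998 by edgeR). Mice 11 and 13 were highest. Slc1a3, the glutamate transporter GLAST, was at 708, 708, 680, 855 and 717 CPM in N/N mice and 596 to 690 CPM in J/J mice. The astrocyte list averaged 7.02, 7.07, 7.22, 7.43 and 7.08 log2 CPM in N/N mice and 6.89 to 7.05 in J/J mice, with mouse 13 highest. Its median log2 fold change was 0.07 without mouse 13.

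Gpr17, a receptor found on oligodendrocytes as they begin to form, was at 82.0, 59.4, 61.5, 59.8 and 73.8 CPM in N/N mice and 51.0, 62.2, 52.3, 49.4 and 52.4 CPM in J/J mice (log2 fold change 0.33, SE 0.10). N/N mice 2 and 14 were highest and J/J mouse 6 overlapped the rest. For C1ql1, another precursor gene, the log2 fold change was 0.30 (SE 0.09). Csf1r, the growth factor receptor of microglia, averaged 163 ± 17.7 CPM in N/N and 138 ± 13.2 CPM in J/J females (SD, n = 5 each), and Tmem119 averaged 35.0 ± 3.59 CPM in N/N and 30.4 ± 2.03 CPM in J/J females. Of 10 markers of the meninges, which lie over the cortex, 1, Slc22a6, was called higher with the ratio and 0 without mouse 11. Over all genes the shares called higher were 2.57% and 0.0253%, in that order. All 10 slopes were above 0 (median 0.38), against 49.9% of all genes. For choroid plexus and ependyma the median was 0.17 with 6 of 9 markers above 0, and -0.04 with 3 of 9 without mouse 11. Among them Ttr, a thyroid hormone carrier, was at 22.7 CPM in N/N mouse 11 and at most 1.86 CPM in every other female. The part of these cell types in the other gene groups was not tested.

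Immediate early genes, transcribed soon after a neuron fires, were uneven among N/N mice. Of 17 genes 16 had log2 fold changes above 0 (median 0.26; 0.42 without mouse 11 and 0.12 without mouse 14), and 0 were called. Fos was at 46.1, 33.2, 14.4, 27.3 and 41.6 CPM in N/N mice, against 24.0, 28.3, 21, 14.4 and 37.5 CPM in J/J mice, and Arc was at 264, 228, 124, 171 and 353 CPM in N/N mice, against 207, 170, 223, 133 and 217 CPM in J/J mice. Fosb, of smallest p in the list, was at 24.1, 16.6, 12.7, 13.1 and 23.4 CPM in N/N and 11.4 to 16.7 CPM in J/J mice (log2 fold change 0.36, SE 0.19). N/N mice 2 and 14 were highest in all 3 genes, and mouse 11 was lowest of the N/N mice. Per doubling of the ratio of Slc17a7 to Ppp1r1b, the list had a median slope of 0.27 with mouse 11 and -0.10 without it. In both fits 0 members were called for the ratio, and the part of cortical RNA was not tested.

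Chaperones of the endoplasmic reticulum, which fold secreted and membrane proteins, had the most members with a small unadjusted p. Of 16 genes 15 lay above 0 (median 0.14), and 7 had an unadjusted p under 0.05, namely Hspa5, Pdia3, Pdia4, Pdia6, Calr, Dnajb11 and Manf, against the 3.37% of all genes given above. Hspa5, the main chaperone BiP, was at 305, 225, 249, 203 and 305 CPM in N/N mice and 229, 219, 200, 202 and 197 CPM in J/J mice (log2 fold change 0.30, SE 0.11, adjusted p = 0.998 by edgeR). Pdia4, a disulfide isomerase, was at 49.1, 35.1, 37.5, 32.9 and 46.9 CPM in N/N mice and 29.5 to 35.0 CPM in J/J mice (0.30, SE 0.11). N/N mice 2 and 14 were the highest in both genes, mouse 13 lay within the J/J range in both, and mouse 4 did so for Hspa5. The number of members with an unadjusted p under 0.05 was 3 without mouse 2, 3 without mouse 14 and 10 without mouse 13. Over all genes the shares in these fits were 3.32%, 1.99% and 3.89%, in that order. The chaperone median stayed between 0.10 and 0.19 as each mouse was left out. Cytosolic heat shock proteins had a median of 0.12 with 12 of 14 above 0, and of 0.07 without mouse 14.

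Other pathways lay close to the median of all genes. Cytosolic ribosomal proteins (median -0.03, 5 of 20 above 0), the nuclear-encoded respiratory chain (-0.02, 5 of 23) and cholesterol synthesis (-0.05, 5 of 21) had medians just below 0. GABA genes had a median of -0.05 and glutamate receptors of -0.01. Without mouse 11 the medians were -0.08 (0 of 20) for ribosomal proteins, -0.05 (4 of 23) for the respiratory chain and 0.00 (11 of 21) for cholesterol synthesis. The ribosomal median was 0.00 with 11 of 20 above 0 without N/N mouse 2. Interferon-stimulated genes (0.06, 19 of 26 above 0), glucocorticoid targets (0.02), opioid genes (0.08) and feeding peptides and receptors (0.03) were within 0.1 of 0 with all mice. The opioid median was -0.03 without N/N mouse 2 and 0.11 without N/N mouse 4. Without J/J mouse 1 the interferon median was 0.14 with 23 of 26 above 0. In that fit 6 of the 26 had an unadjusted p under 0.05 (edgeR), against 5.04% of all genes, and 0 genes were called. Gria4, an AMPA receptor subunit, averaged 121 ± 7.83 CPM in N/N and 134 ± 5.96 CPM in J/J females, and Oprk1, the kappa opioid receptor, averaged 47.9 ± 6.00 CPM in N/N and 55.6 ± 5.39 CPM in J/J females (SD, n = 5 each). On the log2 scale Gria4 differed by -0.15 (SE 0.06) and Oprk1 by -0.21 (SE 0.09), neither past the adjusted threshold. Over the 32 lists 0 members were called for genotype.

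**Figure D4:**
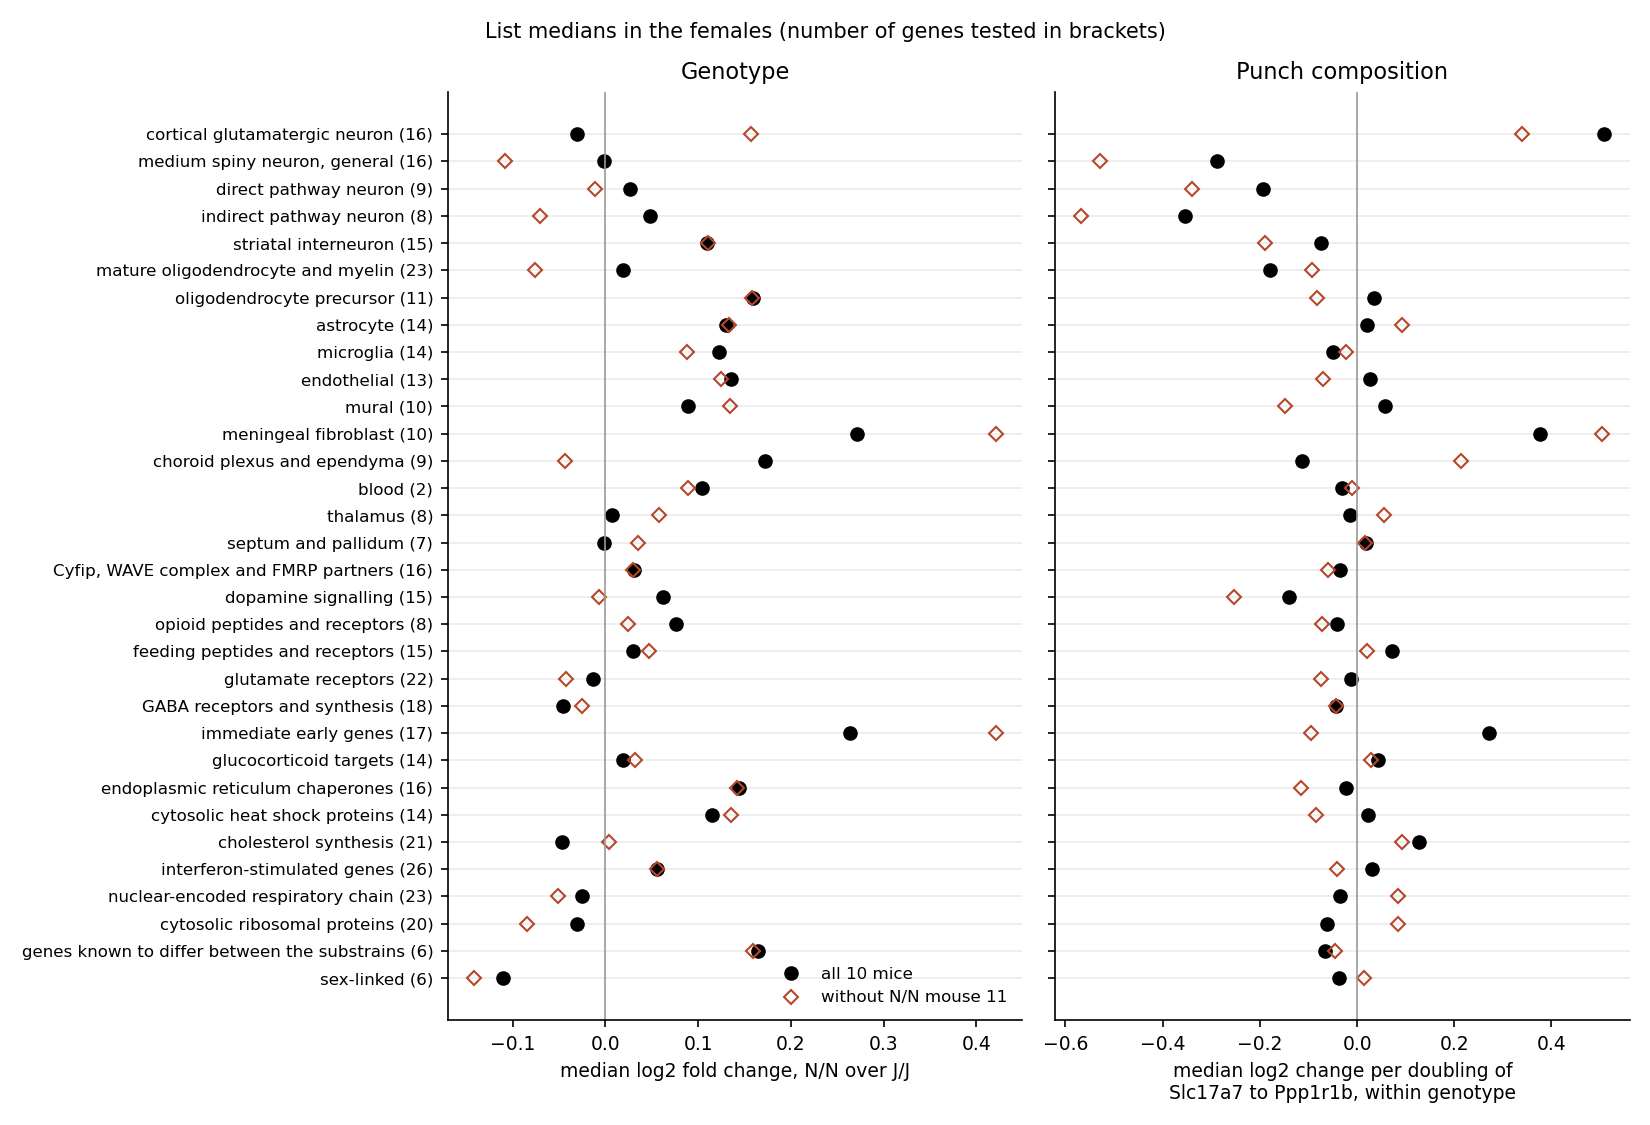
Left, the median genotype log2 fold change (N/N over J/J females) for each gene list; right, the median log2 change per doubling of the ratio of Slc17a7 to Ppp1r1b within genotype. Filled circles use all 10 females and open diamonds leave out N/N mouse 11, and the cortical median for genotype is -0.03 with that mouse and 0.16 without it.

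Cyfip2 and genes with known substrain alleles were examined because the mice differ by a C57BL/6NJ allele. As background, Cyfip2 has different coding alleles in the substrains, and its protein is part of the WAVE complex, which drives branching of actin filaments. It is ENSMUSG00000020340.16 (GRCm38, chromosome 11, 46193850 to 46312859, minus strand). Cyfip2 was at 1186, 1105, 1093, 1038 and 1299 CPM in N/N females and 1248, 1016, 1186, 1122 and 1011 CPM in J/J females. The groups overlapped, with a log2 fold change of 0.04 (SE 0.08) and a 95% interval of 0.91-fold to 1.16-fold, and the sign turned when N/N mouse 14 (-0.01) or J/J mouse 16 (-0.00) was left out. A coding allele need not alter the amount of RNA, so this does not check the genotype labels.

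Among 16 genes of the WAVE complex and the FMRP pathway 10 lay above 0 (median 0.03) and 0 were called. Nckap1l, the form of the scaffold subunit used in blood cells and microglia, differed by 0.17 on the log2 scale (SE 0.06), and Fmr1, whose protein FMRP binds Cyfip2, by -0.13 (SE 0.06). Of 6 tested genes known to differ between the substrains, 5 lay above 0 and 0 were called. Ide, which degrades insulin, was at 57.2, 114, 102, 82.5 and 55.2 CPM in N/N mice and 80.0, 54.6, 56.4, 73.8 and 51.2 CPM in J/J mice. The genotypes overlapped, with the N/N mice at 114, 102 and 82.5 CPM above every J/J mouse and the other N/N mice within the J/J range.

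A comparison with the males asked whether the effect of genotype differed between the sexes. In a fit of all 16 mice, 0 of 16113 genes were called for the interaction by edgeR (smallest adjusted p = 0.0738), 0 by limma-voom and 1 by DESeq2, and 1118 had an unadjusted p under 0.05 by edgeR. Tac2 had the smallest p and was the gene called by DESeq2 (adjusted p = 9.49e-06). On the scaling of this fit Tac2 averaged 3.50 ± 0.318 CPM in N/N females and 2.33 ± 0.356 CPM in J/J females (SD, n = 5 each), against 1.78 ± 0.518 CPM in N/N males and 3.60 ± 0.591 CPM in J/J males (SD, n = 3 each). Expressed as N/N over J/J, its log2 fold change was 0.59 (SE 0.15) in females and -1.02 (SE 0.20) in males, a difference of 1.61 (SE 0.25). N/N females lay above J/J females and N/N males below J/J males with no overlap in either sex. By edgeR Tac2 was also past the threshold without N/N male mouse 5 (adjusted p = 0.0475) and without N/N female mouse 11 (0.0297), and its adjusted p was 0.232 with the composition ratio in the fit.

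Punch make-up moved with this contrast, and its part in the result was not tested beyond the fit with the ratio. Slc17a7 averaged 751 ± 288 CPM in N/N and 737 ± 109 CPM in J/J females (SD, n = 5 each), against 610 ± 60.2 CPM in N/N and 1034 ± 167 CPM in J/J males (SD, n = 3 each). Its log2 fold change was 0.03 in females and -0.76 in males, and the interaction for it was not called (0.79, adjusted p = 0.692 by edgeR). Without N/N female mouse 11 the interaction called 66 genes, 59 of them higher, including Slc17a7 and 2 other cortical markers, and 0 with the ratio in that fit too, a combination added after seeing the data. The ratio was 0.528, 0.466 and 0.650 in N/N males 5, 9 and 12 and 1.29, 2.03 and 0.815 in J/J males 3, 8 and 15 with no overlap, so in the males make-up and genotype cannot be told apart.

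Other genes of small p for the interaction had opposite signs in the sexes. Kif27 had log2 fold changes of -0.22 in females and 0.32 in males, Renbp, an X-linked enzyme of amino sugar metabolism, 0.26 and -0.41, and Ebf2, a transcription factor, 0.64 and -1.66, in females and males in that order. Efemp1, an extracellular matrix protein, had 0.07 in females and -0.58 in males. Each had an adjusted p of 0.692 for the difference (edgeR).

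**Figure D5:**
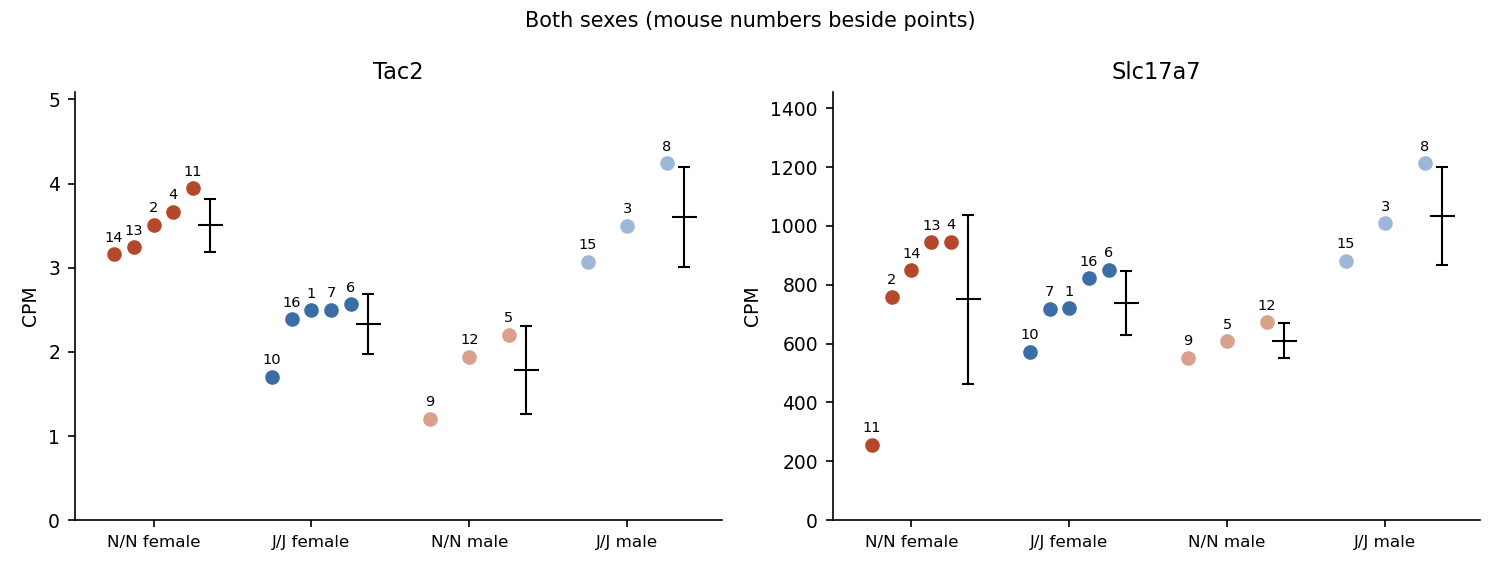
CPM of Tac2 and Slc17a7 in each mouse (number above each point), females left and males right, with the mean ± SD of each group beside its points. Tac2 is higher in N/N than in J/J females and lower in N/N than in J/J males, and Slc17a7 separates the male genotypes but not the female ones.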

How the data were processed

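Poly(A) RNA of striatum punches was sequenced as stranded, 50 bp single-end libraries in 4 runs of 16 mice each, per the labels. The deposited values are raw read counts per gene, 1 table per mouse and run. Per the submitters' processing notes, the authors used FastQC 0.11.3, TopHat2 2.1.0 with mm10, HTSeq 0.6.1p1, edgeR 3.8.6 and limma 3.22.7. The annotation and the strand setting of the counting are not given in the sources used here. Reads of antisense genes that overlap may therefore be mixed. Alignment was to the C57BL/6J reference, so reads of C57BL/6NJ alleles may align slightly less well.

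Runs were summed per mouse over 23420 genes, leaving out 5 summary entries that name no gene. In the females these held reads in no feature (20.1% of all reads in the tables), reads without a unique position (22.1%) and ambiguous reads (0.773%). Between runs of 1 mouse, counts varied close to counting noise (chi-square per degree of freedom 1.03 to 1.05). The labels give mouse, sex and genotype, and p-values measure the spread between mice. Mouse numbers are unique, so no mice pair across groups.

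The 10 females were fitted alone with edgeR 4.0.16 in R 4.3.3 (TMM factors 0.971 to 1.02, filterByExpr with minimum count 10 and minimum total 15, robust quasi-likelihood F test, Benjamini-Hochberg threshold 0.05). The centred log2 ratio of Slc17a7 to Ppp1r1b was the covariate for make-up. Each standard error was obtained as the size of the log2 fold change over the root of its F statistic. List scores are mean log2 CPM with a prior count of 2. DESeq2 1.42.0 and limma-voom (limma 3.58.1) were alternatives, besides other scalings, filters, covariates and leaving out each mouse. The tests were tried on simulated data.

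The members and gene lists were chosen with earlier results of these data known. Named genes were the 12 higher and 12 lower of smallest p for genotype, 6 and 6 with the ratio, 10 and 10 for the ratio, 6 for the interaction, up to 3 per list with an unadjusted p under 0.05 or else the first, and fixed genes, passing over unannotated symbols, and a few genes that the rule names are not reported here; other list members given by value were picked after their values were seen. Listed symbols absent from the tables took a RefSeq synonym (5 genes, such as Drd1a for Drd1). Gene positions are from GENCODE M21 (GRCm38, the same assembly as mm10).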

Additional observations from a re-analysis of the deposited data

Results flagged for a closer look

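In groups of 5 mice, a value was marked when its gap to the nearest other mouse was large against the range of the group (Dixon's criterion). This marked 15 of 206 sets, and chance alone marks about 1 in 20. Mouse 11 was marked 3 times among N/N females. Its Slc17a7 was 255 CPM, against 759 to 945 CPM in the other N/N mice, its Nfil3 4.86 CPM, against 7.53 to 8.26, and its Kif27 14.4 CPM, against 11.5 to 12.3. Mouse 4 had the most gene reads (51334152, against 27405386 to 33166757), the lowest thalamus score (3.25 log2 CPM, against 3.33 to 3.36) and the lowest Tcn2 (20.4 CPM, against 23.2 to 24.2). Mouse 13 had the lowest GABA list score (6.84 log2 CPM, against 7.09 to 7.14) and the highest Slc1a3 (855 CPM, against 680 to 717).

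Among J/J females, mouse 1 had the highest interferon list score (2.25 log2 CPM, against 1.80 to 1.90), the lowest Atad2 (13.2 CPM, against 15 to 15.6) and the lowest Scn1a (147 CPM, against 167 to 171). Mouse 10 was lowest in Tac2 (1.70 CPM, against 2.39 to 2.56) and Slc6a11 (115 CPM, against 132 to 139). Mouse 6 was highest in Gpr17 (62.2 CPM, against 49.4 to 52.4), and mouse 7 in Hsd17b7, a cholesterol synthesis enzyme (27.4 CPM, against 24.4 to 24.9). Their causes were not tested.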

How the results depend on the processing

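For genotype 0 genes were called under all alternatives run, with and without the ratio in the fit. Genes called for the ratio numbered 553 to 681 under the other settings except DESeq2 (1083), and 55 to 656 as each mouse was left out, the lowest without N/N mouse 11 and 391 without J/J mouse 10. The difference of the log2 ratio between the genotypes ran between -0.42 and 0.25 as each mouse was left out, above 0 only without N/N mouse 11. The interaction called 1 gene with DESeq2 and 0 to 66 as each mouse was left out, above 0 without N/N female mouse 11 (66) and N/N male mouse 5 (1). Genes named for the ratio could turn in their genotype difference. Mouse 11 had the highest Gng7 and Adora2a and the lowest Sidt1 and Stmn1 of all females. Without it, the N/N mean of each of them lay on the other side of the J/J mean. Directions of the other named genes held in all settings except for 3 genes whose difference was near 0 or that had few reads. Slc17a7 was -0.11 with limma-voom and between -0.069 and 0.249 as each mouse was left out, Cyfip2 between -0.014 and 0.078 (-0.014 without N/N mouse 14 and -0.00 without J/J mouse 16), and the Y-linked Ddx3y between -0.87 and 0.12. The cause of these changes was not tested, other than that fewer mice were used. No paired analysis was possible because no mouse number occurs in both genotypes. With 5 mice per genotype, differences of 0.32 on the log2 scale were mostly missed in simulated counts.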
